A study of Mus musculus with 56 samples.

Results

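The 10 genes described here mark the cells of the blood vessel wall and of the meninges in mouse cortex. Pdgfrb, Rgs5, Vtn, Acta2 and Tagln are markers of mural cells, and Dcn, Lum, Igf2, Ogn and Slc6a13 are markers of meningeal fibroblasts. They were chosen by gene name, and each name matched 1 row in each of the 3 deposited count tables, which hold 47971 genes for the astrocyte line, 45682 for the heterozygous line and 55385 for the knockout line.

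Mural cells sit on the outside of vessels. Pericytes wrap capillaries and venules, and smooth muscle cells wrap arterioles and arteries. Endothelial cells recruit pericytes by releasing PDGF-B, which binds the receptor encoded by Pdgfrb. Meningeal fibroblasts build the collagen-rich membranes over the cortical surface and follow the larger vessels into the brain as perivascular fibroblasts. None of these cells is the type in which the study expressed its tag, and their transcripts were measured in both fractions of each piece.

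The study measured RNA of the barrel cortex, the whisker area of somatosensory cortex, by translating ribosome affinity purification. In this method a green fluorescent tag on ribosomal protein L10a marks the ribosomes of 1 cell type, and an antibody pulls those ribosomes down with their RNA (bound), leaving the rest of the lysate (unbound). The right whiskers were cauterised on postnatal day 4 and tissue was taken on postnatal day 5, 24 h later. The deprived cortex is therefore the left one, opposite the cauterised whiskers, and the control cortex the right one. All pieces of the knockout line are titled that way. The groups were deprived and control cortex, each bound and unbound, in 3 lines, which makes 12 groups and 56 libraries. The astrocyte line was Aldh1l1::eGFPL10a, in which the Aldh1l1 promoter drives the tag, with 5 deprived and 5 control pieces. The heterozygous line was Cx3cr1CreErt2/+(Litt) with Eef1a1LSL.eGFPL10a/+, in which Cre from the Cx3cr1 locus switches the tag on in microglia and border macrophages, with 4 deprived and 4 control pieces. The knockout line was Cx3cr1CreErt2/CreErt2(Litt) with Eef1a1LSL.eGFPL10a/+, which lacks Cx3cr1, with 5 deprived and 5 control pieces. Mice of both microglial lines, control pieces included, received 50 µg tamoxifen daily on postnatal days 1 to 3, which the labels do not give for the astrocyte line. The labels call the RNA of the knockout line polyA and that of the other lines total RNA.

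Libraries held 10081228 to 28584281 counted reads in the astrocyte line and 32772396 to 56689296 in the microglial lines. All 10 astrocyte markers were higher in bound than in unbound RNA of the astrocyte line, and all 10 microglial markers were higher in bound RNA of both microglial lines. Levels are in CPM, the counts of a gene scaled to 1000000 counted reads per library. Cx3cr1 itself had 0.338 to 1.26 CPM in bound RNA of the knockout line, against 6.56 to 12.6 CPM in bound RNA of the heterozygous line. In the heterozygous line, both hemispheres of mouse 17 are titled deprived and both of mouse 21 are titled control, although the side letters of those libraries are left and right. Groups here follow the titles. The titles of the piece 17R (deprived) and the piece 21L (control) thus go against their side letters and the side of the cautery. Whether these titles are right is not known. Each line held mice of both sexes, and mouse 15 was the only male of the heterozygous line. The part of sex was not tested. The piece 15R, a control piece of the heterozygous line, had the lowest level of its line in Dcn, Igf2, Ogn and Slc6a13 in both of its libraries, and in Lum it lay close to the next control in bound RNA. The gene called between deprived and control pieces of that line is therefore given with these pieces and without them.

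Promoter sequences show what the genes carry upstream of their start sites. Those used here came from RefSeq (GRCm38.p6) and covered 6 of the 10 genes: Rgs5, Vtn, Acta2, Igf2, Ogn and Slc6a13. The absence of the remaining genes does not show that RefSeq lacks them. Printed here are the 250 bases before the start of the 3 fibroblast genes covered, which varied together between pieces. Those of Acta2, whose bound share differed between lines, are printed as well. Capitals mark exact matches on either strand to a TATA box (TATAAA), a GC box (GGGCGG), a forkhead motif (TGTTTAC) and the CArG box. The CArG box, a site of serum response factor, was taken as CC, then 6 bases of A or T, then GG. All are 5′ to 3′ on the strand of the gene.
Ogn promoter (chr13:49607765-49608014, GRCm38.p6, plus strand): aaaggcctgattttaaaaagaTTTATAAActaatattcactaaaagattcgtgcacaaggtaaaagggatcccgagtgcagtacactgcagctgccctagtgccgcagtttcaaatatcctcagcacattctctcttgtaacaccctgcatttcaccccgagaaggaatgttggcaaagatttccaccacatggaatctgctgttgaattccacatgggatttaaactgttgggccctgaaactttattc
Slc6a13 promoter (chr6:121300038-121300287, GRCm38.p6, plus strand): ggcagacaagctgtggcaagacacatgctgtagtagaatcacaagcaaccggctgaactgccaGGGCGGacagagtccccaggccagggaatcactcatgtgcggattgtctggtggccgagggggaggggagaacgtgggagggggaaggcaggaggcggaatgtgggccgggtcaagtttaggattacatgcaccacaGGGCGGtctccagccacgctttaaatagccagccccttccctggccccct
Igf2 promoter (chr7:142661272-142661521, GRCm38.p6, minus strand): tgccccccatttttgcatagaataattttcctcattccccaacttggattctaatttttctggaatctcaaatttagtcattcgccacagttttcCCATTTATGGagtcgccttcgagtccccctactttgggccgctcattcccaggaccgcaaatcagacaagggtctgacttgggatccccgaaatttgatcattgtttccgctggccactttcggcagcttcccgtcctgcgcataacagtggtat
Acta2 promoter (chr19:34255374-34255623, GRCm38.p6, minus strand): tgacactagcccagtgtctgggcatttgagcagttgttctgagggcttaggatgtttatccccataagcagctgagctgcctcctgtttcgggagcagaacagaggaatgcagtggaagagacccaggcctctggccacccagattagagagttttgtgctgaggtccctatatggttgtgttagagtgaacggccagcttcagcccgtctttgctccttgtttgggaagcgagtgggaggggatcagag
The Ogn promoter held 1 TATAAA on each strand, overlapping each other, between 229 and 222 bases before the start. The Slc6a13 promoter, the first of 3, held 2 GC boxes. The second of the 4 Igf2 promoters held a CArG box, matched on both strands, 155 to 146 bases before the start, and the third and the fourth, not printed, held 1 and 2 GC boxes. None of the 4 motifs had an exact match in the Acta2 window. Sites that differ from a motif by a base were not searched for, so the window may still hold sites of serum response factor. Of 32851 mouse promoter windows of this length, 12.4% held a TATA box, 32.7% a GC box, 3.17% a forkhead motif and 1.47% a CArG box.

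CPM here uses library sizes after TMM scaling within a line, and is divided by the exon length in kilobases where genes are compared. Rgs5, a regulator of G protein signalling that is abundant in pericytes, was the highest of the 10 in all 56 libraries. In unbound RNA it averaged 39.5 ± 6.88 CPM per kilobase in the knockout line, 38.8 ± 6.48 in the heterozygous line and 56.6 ± 4.59 in the astrocyte line (SD, n = 10, 8 and 10). Vtn, which encodes the matrix protein vitronectin, came next in unbound RNA of each line, at 1.94 ± 0.649, 2.19 ± 0.725 and 3.19 ± 0.781 CPM per kilobase. Below Vtn the order was close. Dcn and Ogn lay between 1.05 and 1.94 CPM per kilobase on average and changed places between lines, with overlapping ranges. Acta2 averaged 0.888 to 1.09 CPM per kilobase. Lum, Slc6a13 and Pdgfrb averaged 0.492 to 0.900 CPM per kilobase, and their ranges over libraries overlapped in every line. Igf2 averaged 0.178 to 0.297 CPM per kilobase in unbound RNA. Tagln, an actin-binding protein of contractile smooth muscle, was lowest, with 0 to 13 counts per library, and failed the filter on low counts in all 12 comparisons. It was at 0 counts in 4 of 10 bound and 7 of 10 unbound libraries of the astrocyte line. No test is given for Tagln. The counts of each line were deposited in a table of their own and scaled separately, so levels are not compared between them.

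**Figure D1:**
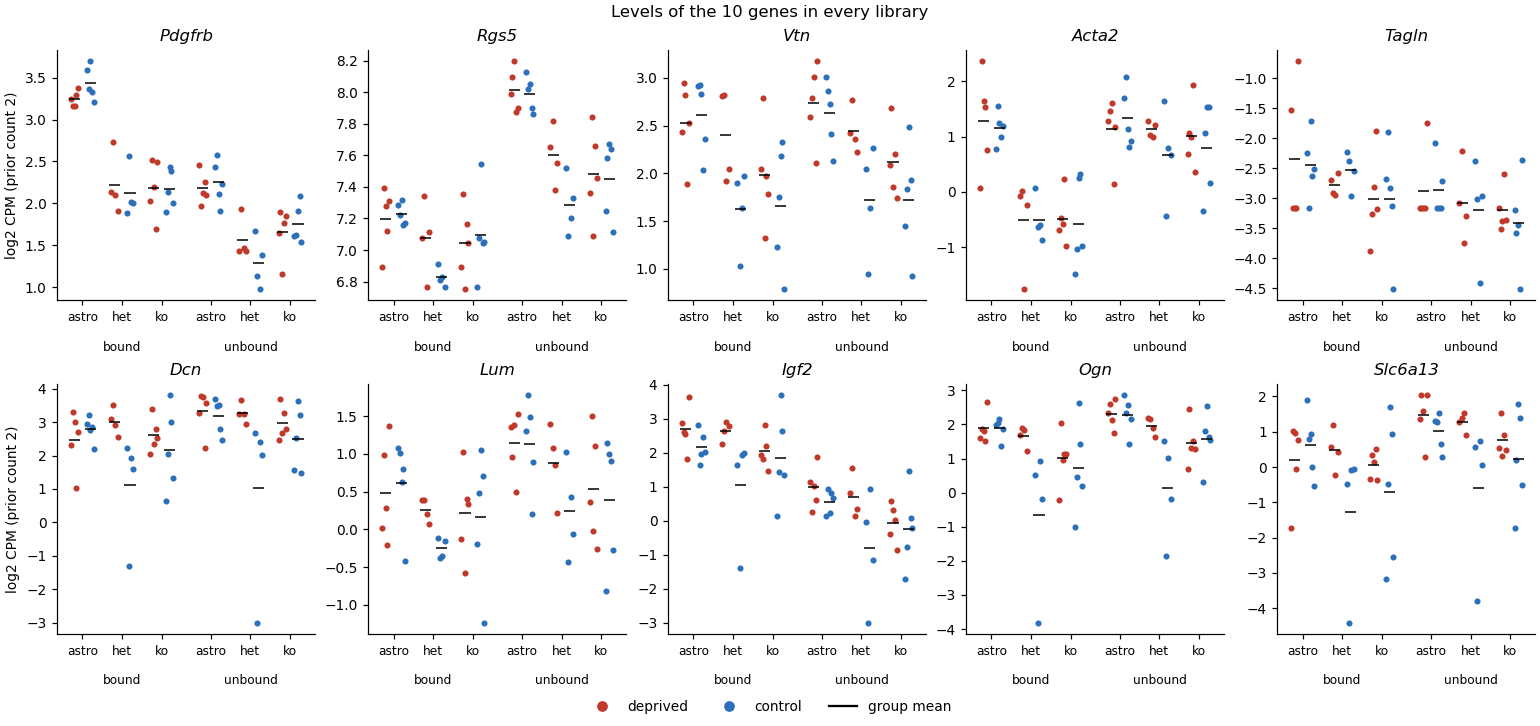
Level of each gene in every library, as log2 CPM with a prior count of 2 (vertical axis, own scale per gene), by line (astro, astrocyte; het, heterozygous; ko, knockout) with bound RNA to the left and deprived pieces in red left of control pieces in blue; black lines are group means. Dcn, Igf2, Ogn and Slc6a13 each have 1 control library of the heterozygous line as the lowest point of each fraction, and Tagln stays near the detection limit.

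Overlapping genes limit what some counts can show. Igf2 shares 3596 of its 5723 exon bases with Gm49394 on the same strand (GRCm38, GENCODE vM21), and Gm49394 had 0 counts in all 20 knockout libraries. How reads in the shared bases were counted is not given in the sources used here. The level of Igf2 per kilobase, which divides by all its exon bases, may therefore be too low. Tagln shares 1241 exon bases with Gm48529 on the other strand, and whether counting used the strand is not given in the sources used here. Ogn lies within Cenpp, which runs on the other strand and shares no exon base with it. Slc6a13 contains Gm24855 on the other strand with no exon base shared, and Pdgfrb, Rgs5, Vtn, Acta2, Dcn and Lum overlap no other annotated gene.

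Bound RNA was set against unbound RNA in each line to see how far transcripts of vessel and meningeal cells came down with the tagged ribosomes. The mural genes split. Pdgfrb was higher in bound RNA of all 3 lines, Rgs5 was lower in all 3, Vtn did not pass the test in any, and Acta2 was lower in bound RNA of both microglial lines and did not pass the test in the astrocyte line. Of the fibroblast genes, Igf2 was higher in bound RNA of all 3 lines. Adjusted p-values are from edgeR's quasi-likelihood test with Benjamini-Hochberg adjustment over all genes tested, and a gene is called at an adjusted p below 0.05. In the astrocyte line 2 of the 9 genes tested were called higher in bound RNA, against 31.5% of all 18324 genes, and 4 were called lower, against 27.6%. In the heterozygous line 2 of 9 were called higher, against 31.8% of 19275 genes, and 3 lower, against 30.8%. In the knockout line 2 of 9 were called higher, against 31.6% of 19681 genes, and 2 lower, against 30.4%. These counts are close to the share called among all genes, so the direction of single genes and their size in each line carry the description.

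Pdgfrb averaged 10.1 ± 1.33 CPM in bound and 4.58 ± 0.719 CPM in unbound RNA of the astrocyte line (SD, n = 10 each), a log2 difference of 1.17 ± 0.09 (SE; edgeR adjusted p = 9.32e-12). Bound RNA was higher in 10 of 10 pieces, by 0.79 to 1.59 on the log2 scale. The averages were 4.55 ± 1.09 CPM in bound and 2.69 ± 0.575 CPM in unbound RNA of the heterozygous line (n = 8 each), a log2 difference of 0.72 ± 0.14 (edgeR adjusted p = 2.08e-04) that was positive in 8 of 8 pieces. In the knockout line they were 4.55 ± 0.861 CPM in bound and 3.27 ± 0.562 CPM in unbound RNA (n = 10 each), a log2 difference of 0.46 ± 0.12 (edgeR adjusted p = 0.00196), and bound RNA was higher in 9 of 10 pieces. The receptor was thus higher in the pulldown of each line, whether astrocytes or microglia carried the tag. The log2 difference was greater in the astrocyte line than in the heterozygous line by 0.53 ± 0.17 (interaction term; edgeR adjusted p = 0.00997) and greater than in the knockout line by 0.72 ± 0.15 (edgeR adjusted p = 1.54e-04).

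Rgs5 went the other way. It averaged 149.1 ± 13.9 CPM in bound and 257.2 ± 20.8 CPM in unbound RNA of the astrocyte line, 124.9 ± 18.9 and 176.2 ± 29.5 CPM in bound and unbound RNA of the heterozygous line, and 136.0 ± 24.4 and 179.5 ± 31.3 CPM in bound and unbound RNA of the knockout line. The log2 differences were -0.74 ± 0.06, -0.53 ± 0.08 and -0.42 ± 0.10 (edgeR adjusted p = 6.25e-12, 3.58e-06 and 0.00138 in that order of lines). Bound RNA was lower in every one of the 28 pieces. Rgs5 and Pdgfrb, both pericyte markers, therefore moved in opposite directions between the fractions of the same pieces. The astrocyte line's log2 difference was lower than that of the knockout line by 0.32 ± 0.12 on a test of the difference (log2 -0.32; edgeR adjusted p = 0.0343). That call was lost in 9 of the 40 fits that left 1 library out, with edgeR adjusted p up to 0.0698. The libraries were the astrocyte deprived bound replicate 1 and deprived unbound replicate 3, the knockout bound libraries of 12L and 18R, and the knockout unbound libraries of 7L, 7R, 18L, 22L and 22R. Vtn had log2 differences of -0.06 ± 0.15, -0.10 ± 0.18 and -0.09 ± 0.21 in that order of lines, and none passed the test.

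Acta2, the actin of contractile smooth muscle, was the gene whose bound share differed most between lines among those tested. In the astrocyte line it averaged 2.41 ± 1.13 CPM in bound and 2.39 ± 0.883 CPM in unbound RNA, which differed by 0.07 ± 0.24 on the log2 scale (edgeR adjusted p = 0.826). Bound RNA was higher in 6 of 10 of its pieces, over a log2 range of -1.21 to 1.39. The averages were 0.702 ± 0.258 CPM in bound and 1.95 ± 0.699 CPM in unbound RNA of the heterozygous line, and 0.706 ± 0.330 CPM in bound and 2.02 ± 0.936 CPM in unbound RNA of the knockout line. These gave log2 differences of -1.51 ± 0.27 (edgeR adjusted p = 4.66e-05) and -1.52 ± 0.29 (edgeR adjusted p = 6.89e-05), and bound RNA was lower in 8 of 8 and 10 of 10 pieces. The astrocyte line exceeded the heterozygous line by 1.65 ± 0.38 on the log2 scale (interaction term; edgeR adjusted p = 4.53e-04) and the knockout line by 1.60 ± 0.39 (edgeR adjusted p = 9.19e-04). No other line difference of this size was seen among the 10 genes. Over all genes, 41.8% were called for a difference between the astrocyte and heterozygous lines and 39.8% for one between the astrocyte and knockout lines, so 2 of 9 and 3 of 9 of the genes here are below the share of all genes. Between the knockout and heterozygous lines edgeR called 0 of 20676 genes (0%) for such a difference, with 712 at an unadjusted p under 0.05, and 0 of the 9 genes here by edgeR or by DESeq2.

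Among the fibroblast genes, Igf2 stood against the other 4. Igf2, a growth factor that is imprinted and made by the meninges and the choroid plexus, averaged 5.79 ± 2.75 CPM in bound and 1.70 ± 0.743 CPM in unbound RNA of the astrocyte line. The averages were 4.56 ± 2.33 CPM in bound and 1.27 ± 0.882 CPM in unbound RNA of the heterozygous line, and 4.68 ± 3.39 CPM in bound and 1.02 ± 0.688 CPM in unbound RNA of the knockout line. The log2 differences were 1.83 ± 0.22, 1.80 ± 0.39 and 2.18 ± 0.39 (edgeR adjusted p = 4.58e-08, 4.90e-04 and 3.74e-05), and bound RNA was higher in all 28 pieces. The 3 lines differed by less than the error of these values: the astrocyte line minus the heterozygous line gave 0.11 ± 0.47 and the astrocyte line minus the knockout line -0.34 ± 0.48, with neither passing the test.

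Dcn, Lum and Ogn encode small leucine-rich proteoglycans that bind collagen fibres, and Slc6a13 encodes a transporter of GABA and taurine. All 4 had lower average log2 levels in bound than in unbound RNA in each line. In the astrocyte line Dcn averaged 6.56 ± 2.31 CPM in bound and 10.1 ± 3.35 CPM in unbound RNA, a log2 difference of -0.56 ± 0.22 (edgeR adjusted p = 0.0269). Lum had -0.54 ± 0.23 (edgeR adjusted p = 0.0492) and Ogn -0.41 ± 0.17 (edgeR adjusted p = 0.0370). Lum, Ogn and Dcn lost the call in 13, 10 and 5 of 20 fits that left 1 library out. The 5 for Dcn were those without the deprived bound replicate 1, the control bound replicate 5, the deprived unbound replicates 2 and 3 and the control unbound replicate 1, with edgeR adjusted p up to 0.0698. Ogn lost it without the deprived bound replicates 1 to 4, the control bound replicate 4, the deprived unbound replicates 1, 2 and 5 or the control unbound replicates 1 and 3, and Lum without the deprived bound replicates 1, 3 and 4, the control bound replicates 3 to 5, the deprived unbound replicates 1, 2, 3 and 5 or the control unbound replicates 1 to 3, with edgeR adjusted p up to 0.111 and 0.102. Slc6a13 had -0.63 ± 0.32 (edgeR adjusted p = 0.0864). In the heterozygous line Lum was called, with 0.976 ± 0.216 CPM in bound and 1.55 ± 0.651 CPM in unbound RNA and a log2 difference of -0.70 ± 0.20 (edgeR adjusted p = 0.00466). Dcn, Ogn and Slc6a13 had -0.36 ± 0.40, -0.45 ± 0.38 and -0.75 ± 0.43 there, and Dcn, Lum, Ogn and Slc6a13 had -0.26 ± 0.32, -0.33 ± 0.30, -0.47 ± 0.36 and -0.60 ± 0.46 in the knockout line, none of these past the test. Since both fractions come from the same piece, the fit was repeated with the piece as a block. It called 8 of 9 genes in the heterozygous line and 7 of 9 in the knockout line, in place of 5 and 4. The added calls were Dcn, Ogn and Slc6a13 in both lines, all lower in bound RNA. The blocked log2 differences of Dcn, Ogn and Slc6a13 were -0.32, -0.44 and -0.79 in the heterozygous line (edgeR adjusted p = 0.00927, 0.0132 and 8.89e-04) and -0.33, -0.60 and -0.73 in the knockout line (edgeR adjusted p = 9.98e-04, 0.00100 and 7.48e-04). In the astrocyte line the block added Slc6a13 at -0.75 (edgeR adjusted p = 0.00778). Without both libraries of piece 15R, 7 of 9 genes were called in the heterozygous line, with Dcn at -0.38 and Slc6a13 at -0.76 (edgeR adjusted p = 0.0415 and 0.00366). In the main fits 12069 of 19275 genes of the heterozygous line and 12187 of 19681 genes of the knockout line were called in either direction. The shares of all genes called with the block, or without piece 15R, are not given here. The added calls are therefore not set against all genes.

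**Figure D2:**
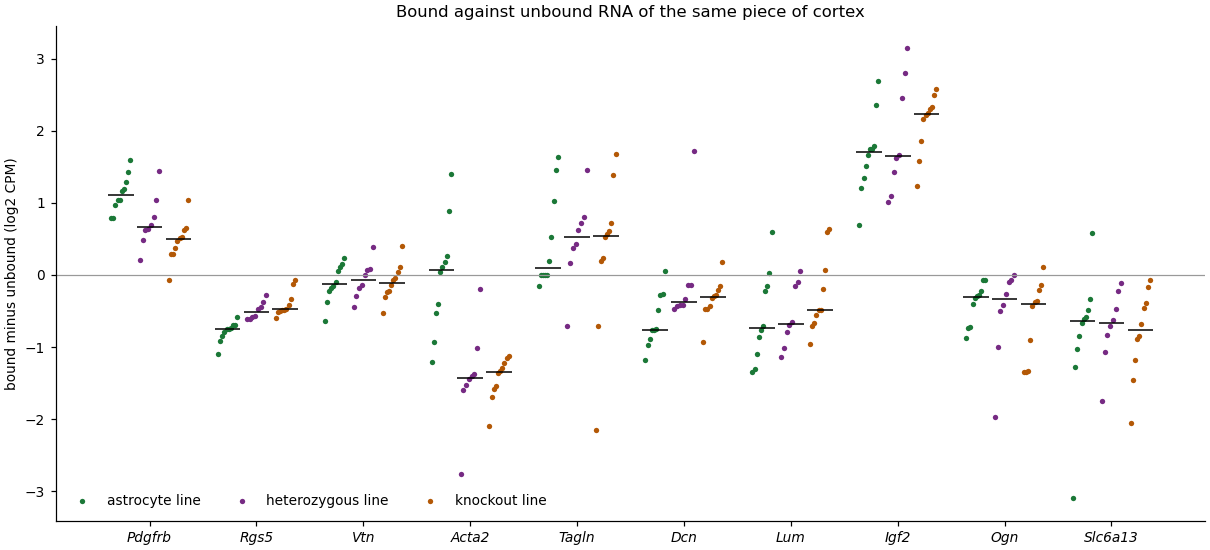
Bound minus unbound log2 CPM (prior count 2) in each piece of cortex, by gene (horizontal axis) and line (colour; 10 astrocyte, 8 heterozygous and 10 knockout pieces); black lines are medians over pieces and the grey line is 0. Pdgfrb and Igf2 lie above 0 in 27 and 28 of 28 pieces, Rgs5 lies below 0 in all 28, and Acta2 lies below 0 in all 18 pieces of the microglial lines but on both sides of 0 in the astrocyte line.

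Other genes of these cells, listed with earlier results of the data known, also split by gene. Of 13 other pericyte genes tested in the astrocyte line, 5 were called higher in bound RNA and 0 lower, against 31.5% and 27.6% of all genes, with a median log2 difference of 0.48 over the list against 0.03 over all genes. The heterozygous line had 5 of 14 called higher, against 31.8% of all genes, and 4 lower, against 30.8%. The knockout line had 5 of 14 higher, against 31.6%, and 2 lower, against 30.4%. The higher counts are near the shares of all genes. Notch3, a receptor needed by mural cells, and Cspg4, the NG2 proteoglycan, were called higher in each line: Notch3 by 2.37 ± 0.17, 1.69 ± 0.11 and 1.45 ± 0.14, and Cspg4 by 1.33 ± 0.13, 1.41 ± 0.09 and 1.54 ± 0.12 on the log2 scale (astrocyte line first, then heterozygous, then knockout). Ndufa4l2, a mitochondrial protein enriched in pericytes, was called higher in bound RNA of the astrocyte line (0.57 ± 0.25) and lower in bound RNA of the microglial lines, at -0.88 ± 0.27 when heterozygous and -0.999 ± 0.275 when knockout, and the differences of 1.52 ± 0.35 and 1.58 ± 0.36 between the astrocyte line and these lines were themselves called (edgeR adjusted p = 5.73e-04 and 4.68e-04).

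Of the other smooth muscle genes, 6 of 8 were called higher in bound RNA of the astrocyte line and 1 lower, where 31.5% and 27.6% of all genes were called. In the heterozygous line 3 of 11 were higher and 5 lower, beside 31.8% and 30.8% of all genes, and in the knockout line 4 of 11 were higher and 4 lower, beside 31.6% and 30.4%. Myl9, a regulatory light chain of myosin, followed the pattern of Acta2: its log2 difference was 0.61 ± 0.11 in the astrocyte line, -1.03 ± 0.11 in the heterozygous line and -1.15 ± 0.13 in the knockout line. The astrocyte line exceeded the others by 1.71 ± 0.17 and 1.77 ± 0.17 (edgeR adjusted p = 5.67e-11 and 4.09e-11). Tpm2, a tropomyosin, was lower in bound RNA of the heterozygous (-0.66 ± 0.15) and knockout lines (-0.78 ± 0.13) and differed from the astrocyte line by 1.01 ± 0.20 and 1.06 ± 0.19 (edgeR adjusted p = 8.67e-05 and 1.24e-05). Des, the muscle intermediate filament desmin, did not share this pattern and was called higher in bound RNA of all 3 lines (1.83 ± 0.26, 1.55 ± 0.19 and 1.43 ± 0.21).

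Of the other meningeal fibroblast genes, 10 of 22 were called higher in bound RNA of the astrocyte line, where 31.5% of all genes were, and 2 lower, where 27.6% were. The heterozygous line had 7 of 23 called higher and 4 lower, beside 31.8% and 30.8% of all genes. The knockout line had 7 of 25 higher and 3 lower, beside 31.6% and 30.4%, so the higher counts of both microglial lines are near the shares of all genes. Fn1 and Lama1, which encode fibronectin and a laminin chain, were called higher in each line. In the same order of lines Fn1 was higher by 2.19 ± 0.08, 2.15 ± 0.16 and 2.17 ± 0.12 on the log2 scale, and Lama1 by 1.24 ± 0.15, 2.21 ± 0.20 and 2.36 ± 0.22. Apod, a lipid carrier, was called lower in each line, at -0.70 ± 0.18, -1.01 ± 0.15 and -0.98 ± 0.23. Genes of 1 list thus lay on both sides of 0 in each line, as did the 10 genes themselves. Whether each listed gene came from 1 cell type in these pieces was not tested. Border macrophages, which the Cx3cr1 driver also tags and which lie beside the meningeal fibroblasts, had 7 of 7 markers called higher in bound RNA of each microglial line, with a median log2 difference of 2.44 for the heterozygous line and 2.39 for the knockout line, against 0 of 5 called higher and 2 called lower in the astrocyte line. The part of tagged border macrophages in the bound values of the fibroblast genes was not tested.

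How much a gene varied between pieces of the same group set what any comparison could detect. The SD of log2 CPM around the group means of deprived and control pieces was computed for each gene and ranked among all genes that passed the filter. Rgs5 had an SD of 0.12 to 0.27 in the 6 combinations of line and fraction, between the 24.4th and 67.4th percentile of all genes, and Pdgfrb had 0.16 to 0.33. The fibroblast genes were mostly more variable than these, and so were the mural genes Vtn, at 0.38 to 0.59, and Acta2, at 0.56 to 0.73. In unbound RNA of the astrocyte line Acta2, at 0.56, exceeded Lum (0.53), Igf2 (0.50) and Ogn (0.47). In unbound RNA the SD of Dcn was 1.92 in the heterozygous, 0.76 in the knockout and 0.60 in the astrocyte line, and the median gene had 0.17, 0.18 and 0.15. All 5 fibroblast genes were above the 93.5th percentile in unbound RNA of each line. Lum was the exception in bound RNA of the heterozygous line, where its SD of 0.15 lay at the 38.0th percentile. Acta2, Lum, Slc6a13 and Tagln had at most 140 counts in any astrocyte library, and the part of counting error in their SD was not tested.

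**Figure D3:**
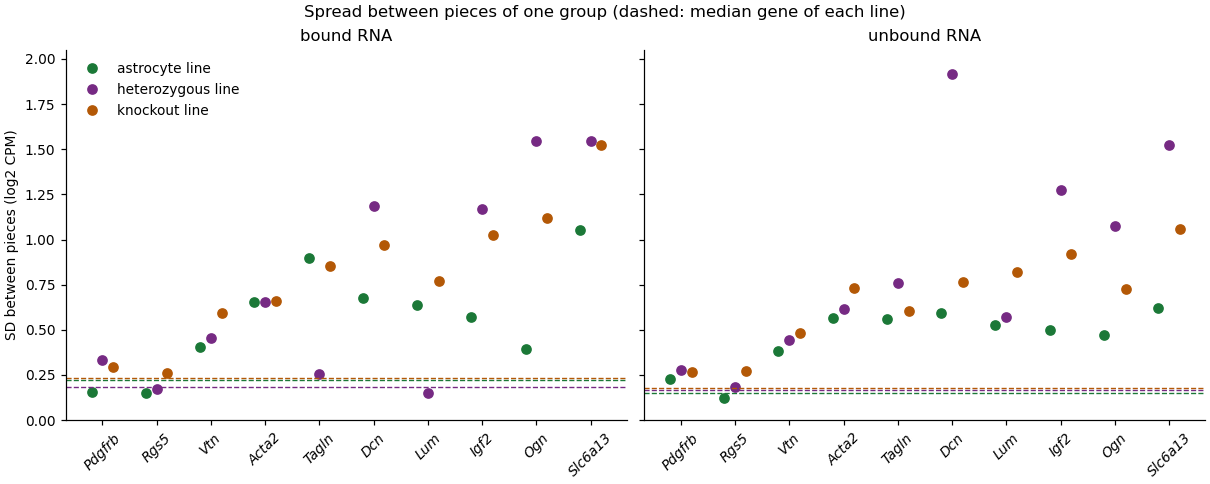
SD of log2 CPM between pieces around the group means (vertical axis) for each gene, by line (colour) in bound RNA (left) and unbound RNA (right); dashed lines give the median gene of each line. Pdgfrb and Rgs5 lie near the dashed lines, and Dcn, Igf2, Ogn and Slc6a13 lie far above them in the heterozygous line, with Dcn reaching 1.92 in unbound RNA.

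The fibroblast genes varied together. Over the 28 unbound libraries, after taking off group means, the 10 pairs among Dcn, Lum, Igf2, Ogn and Slc6a13 had Pearson correlations of 0.55 to 0.95 with a median of 0.75, and over the 28 bound libraries a median of 0.79. The 3 pairs among Pdgfrb, Rgs5 and Vtn had 0.46 to 0.75 in unbound RNA. Acta2 and Tagln, both smooth muscle genes, had -0.05, and Tagln was near the detection limit. Correlations between the groups of genes were also mostly positive. In unbound RNA the 15 pairs of a fibroblast gene with Pdgfrb, Rgs5 or Vtn had 0.21 to 0.77 with a median of 0.57, and in bound RNA a median of 0.49. The 10 pairs of a fibroblast gene with Acta2 or Tagln had medians of 0.30 and 0.25 in unbound and bound RNA. Acta2 alone had 0.57 to 0.79 with the 5 fibroblast genes in unbound RNA, within the range of the fibroblast pairs themselves. These are descriptions over libraries that share mice, dissection and library size. The mean deviation of the 5 fibroblast genes in a piece was much the same in both of its libraries: the correlation between bound and unbound RNA was 0.79 over 10 astrocyte, 0.97 over 8 heterozygous and 0.95 over 10 knockout pieces. Piece 15R of the heterozygous line lay 2.26 below its group mean in bound and 2.41 below in unbound RNA, on the log2 scale. At the other end, the control piece 18R of the knockout line lay 1.74 above in bound and 1.19 above in unbound RNA, and 7R of that line lay 1.56 and 1.36 below. The mean deviation of Pdgfrb, Rgs5 and Vtn stayed within -0.45 and 0.48 in all 28 pieces.

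**Figure D4:**
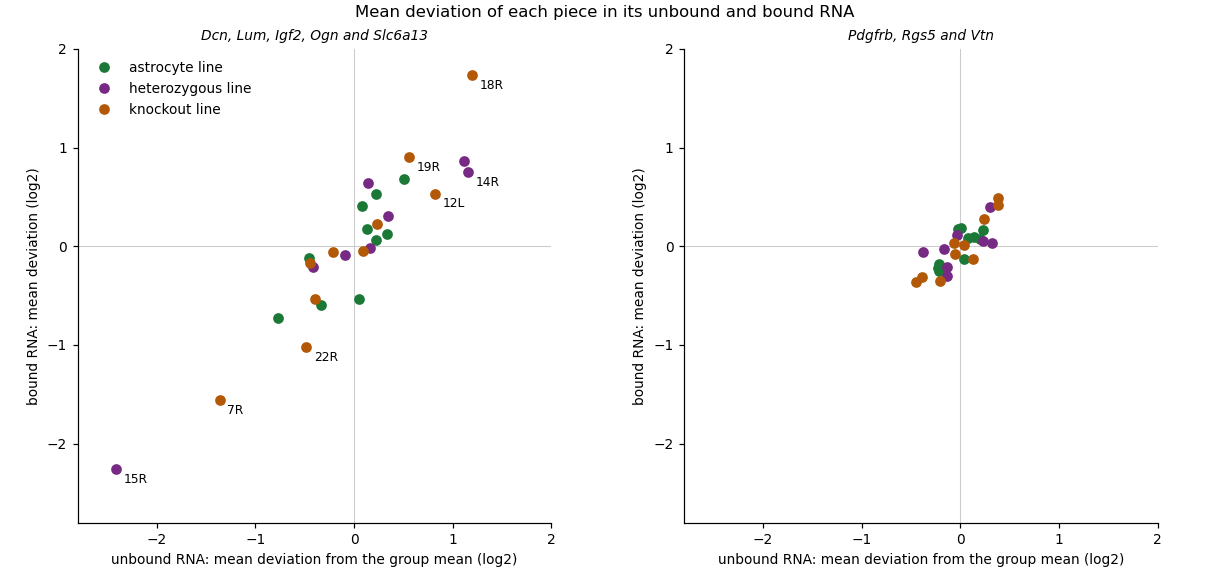
Mean log2 deviation of each of the 28 pieces from its group mean, in unbound RNA (horizontal axis) and bound RNA (vertical axis), for the 5 fibroblast genes (left panel) and for Pdgfrb, Rgs5 and Vtn (right panel), coloured by line. The fibroblast genes spread from piece 15R at -2.41 and -2.26 to piece 18R at 1.19 and 1.74, and the pericyte genes stay close to 0 on the same axes.

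Ranked among 11904 named genes over the unbound libraries, those most like the fibroblast pattern were Col1a1, Col1a2 and Col3a1, which encode fibrillar collagens, with correlations of 0.95, 0.94 and 0.94, then Tbx18 and Aldh1a2 with 0.94 each. Those most like the pattern of Pdgfrb, Rgs5 and Vtn were Fstl1 (0.92), Aplnr (0.88), Col4a1 (0.85), Ptprb (0.84) and Kdr (0.84), of which Aplnr, Ptprb and Kdr encode receptors of endothelial cells. Those most like Acta2 and Tagln were Chek2 (0.81), Fam53b (0.73), Creb3l2 (0.70), Bmp7 (0.69) and Nt5dc2 (0.68). Tagln, which makes up this last pattern with Acta2, had at most 8 counts in an unbound library and a correlation of -0.05 with Acta2. The part of counting error in this ranking was not tested. The median correlation of all genes with these 3 patterns was -0.11, -0.08 and -0.03.

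Deprived pieces were then set against control pieces to see whether loss of whisker input changed these genes within 24 h. In bulk RNA, fewer cells of a type and less RNA per cell cannot be told apart. In the astrocyte line no gene passed the test. edgeR called 0 of 17685 genes (0%) in bound and 0 of 16846 genes (0%) in unbound RNA, with 1067 and 1043 at an unadjusted p under 0.05, and none of the 9 genes here was at such a p. DESeq2 called 5 and 4 genes, and none of the 9. The 9 log2 differences lay between -0.46 and 0.52 in bound and between -0.18 and 0.52 in unbound RNA. Dcn, for example, had 4.87, 9.76, 7.85, 1.93 and 6.34 CPM in bound RNA of deprived pieces, against 7.58, 9.07, 6.62, 7.08 and 4.51 CPM in control pieces. Values of deprived pieces lay on both sides of the control range.

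In the knockout line none of the 9 genes was called either, against 0.00546% of 18324 genes in bound and 0.038% of 18421 genes in unbound RNA. None of the 9 was at an unadjusted p under 0.05, and DESeq2 called none of them. The log2 differences lay between -0.24 and 0.29 in bound and between -0.17 and 0.31 in unbound RNA. Dcn had 4.08, 10.6, 5.09, 6.96 and 5.67 CPM in bound RNA of the deprived cortex of mice 7, 12, 18, 19 and 22, against 1.51, 4.11, 14.0, 8.06 and 2.49 CPM in their control cortex. Deprived cortex was higher in mice 7, 12 and 22 and lower in mice 18 and 19. The 2 hemispheres of a mouse differed by up to 1.45 on the log2 scale in either direction, more than the difference between the group means. With the mouse as a block edgeR called 2 genes in bound and 3 in unbound RNA in place of 1 and 7, and still none of the 9. The thalamus marker Tcf7l2 had 11.6 to 15.1 CPM in bound RNA of deprived pieces and 23.6 to 158.4 CPM in control pieces of this line, and the summed choroid plexus markers 5.04 to 586.1 and 529.5 to 874.5 CPM, so the pieces of the 2 groups also differed in markers of neighbouring tissue, and the part of that in the values of the 9 genes was not tested.

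In the heterozygous line, with groups by title, Dcn was called higher in bound RNA of deprived pieces. The other fibroblast genes were higher on average without passing the test. With groups by side letter, edgeR called 0 of 18001 genes in bound RNA. The values that follow use the titles unless stated. Of the 9 genes, 1 was called higher in bound RNA, against 5.52% of 18001 genes called higher. At an unadjusted p under 0.05 were 6 of the 9, and 4722 of all 18001 genes. In unbound RNA 0 of 9 were called by edgeR, against 3.75% of 18073 genes called in either direction, and 2 of 9 by DESeq2. There 5 of the 9 were at an unadjusted p under 0.05, and 3221 of all 18073 genes. All 9 log2 differences were above 0 in both fractions, with medians of 0.79 in bound and 0.70 in unbound RNA, and the median over all genes was 0.01 and 0.00.

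Dcn had 8.47, 11.4, 7.50 and 5.78 CPM in bound RNA of the deprived pieces 14L, 15L, 17L and 17R, against 4.63, 0.360, 3.75 and 2.98 CPM in the control pieces 14R, 15R, 21L and 21R. The groups did not overlap, and the control piece 15R was far below the rest. How many of all genes had groups without overlap was not counted, so overlap is only described here and below. The log2 difference was 1.49 ± 0.43 (edgeR adjusted p = 0.0416). In unbound RNA the same pieces had 9.34, 12.5, 9.42 and 7.71 CPM when deprived and 6.29, 0.0772, 5.21 and 3.98 CPM as controls, a log2 difference of 1.37 ± 0.51 that was not called (edgeR adjusted p = 0.167). The call in bound RNA was lost in 8 of 15 alternative settings, over which the edgeR or DESeq2 adjusted p ran from 7.40e-18 to 0.909. It was lost on leaving out 14L, 15L, 17L, 21L or 21R alone, with log2 differences of 1.29 to 1.64 and edgeR adjusted p of 0.0572 to 0.133. Without the control piece 15R the difference in bound RNA was 1.13 (edgeR adjusted p = 0.00917), and in unbound RNA 0.95, where it passed the test (edgeR adjusted p = 0.0167). With the groups taken from the side letters it was 1.18 (edgeR adjusted p = 0.909), and without the pieces 17R and 21L it was 1.78 (edgeR adjusted p = 0.0719).

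Ogn had 3.16, 3.67, 3.49 and 2.26 CPM in bound RNA of the deprived pieces in the same order, against 1.38, 0.0240, 1.85 and 0.832 CPM in the control pieces. The groups did not overlap here either, and the log2 difference was 1.60 ± 0.52 (edgeR adjusted p = 0.0647). Igf2 had 4.72, 6.20, 7.52 and 6.91 CPM in bound RNA of deprived pieces, against 3.06, 0.336, 3.79 and 3.93 CPM in control pieces. Its groups also did not overlap, and the log2 difference was 1.17 ± 0.42 (edgeR adjusted p = 0.0895). Without piece 15R both passed the test in bound RNA, at 1.21 for Ogn and 0.81 for Igf2 (edgeR adjusted p = 0.0169 and 0.0139). With Dcn, 3 of the 9 genes were then called higher, against 4.92% of all genes. Slc6a13 had 1.43, 2.22, 0.810 and 1.30 CPM in bound RNA of deprived pieces, against 0.665, 0, 0.896 and 0.916 CPM in control pieces, a log2 difference of 1.20 ± 0.58 (edgeR adjusted p = 0.212). Lum had 1.26, 1.26, 1.10 and 1.001 CPM in deprived pieces, against 0.879, 0.720, 0.733 and 0.853 CPM in control pieces. Its groups did not overlap, and it differed by 0.53 ± 0.24 on the log2 scale (edgeR adjusted p = 0.185). Piece 15R was the lowest control in each of these genes, and the distance from the other controls was smallest in Lum. In unbound RNA the log2 differences were 1.45 ± 0.44 for Ogn, 1.16 ± 0.55 for Igf2, 1.29 ± 0.49 for Slc6a13 and 0.66 ± 0.32 for Lum, and none passed the test.

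None of the mural genes was called by edgeR. Vtn had 6.97, 7.03, 3.74 and 4.08 CPM in bound RNA of the deprived pieces, against 3.68, 1.99, 3.05 and 3.87 CPM in the control pieces, a log2 difference of 0.79 ± 0.24 (edgeR adjusted p = 0.0567). The 2 deprived pieces of mouse 17 were close to the controls and those of mice 14 and 15 were above them. DESeq2 called Vtn and did not call Dcn in bound RNA. Rgs5 differed by 0.25 ± 0.10 in bound (edgeR adjusted p = 0.119) and by 0.36 ± 0.10 in unbound RNA (edgeR adjusted p = 0.0645), Pdgfrb by 0.11 ± 0.20 and 0.31 ± 0.19, and Acta2 by 0.10 ± 0.40 and 0.32 ± 0.31. In unbound RNA DESeq2 called Rgs5 and Vtn. For each mouse of this line the left and right cortex can be compared regardless of title. Dcn and Ogn were higher on the left in 4 of 4 mice in bound and in unbound RNA, with medians of 0.62 and 1.14 on the log2 scale in bound RNA. That holds in mouse 17, where both sides are titled deprived (Dcn 7.50 CPM left and 5.78 CPM right in bound RNA), and in mouse 21, where both are titled control (3.75 CPM left and 2.98 CPM right). The other fibroblast genes were less uniform. In bound RNA Slc6a13 was higher on the left in 2 of 4 mice and Igf2 and Lum in 3 of 4, and in unbound RNA Slc6a13 and Lum in 4 of 4 and Igf2 in 3 of 4. Slc6a13 had 0.810 CPM left and 1.30 CPM right in bound RNA of mouse 17, and Lum 0.733 CPM left and 0.853 CPM right in that of mouse 21. In the knockout line, where left is deprived throughout, Dcn was higher on the left in 3 of 5 mice in bound and 4 of 5 in unbound RNA, and Ogn in 3 of 5 and 2 of 5.

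**Figure D5:**
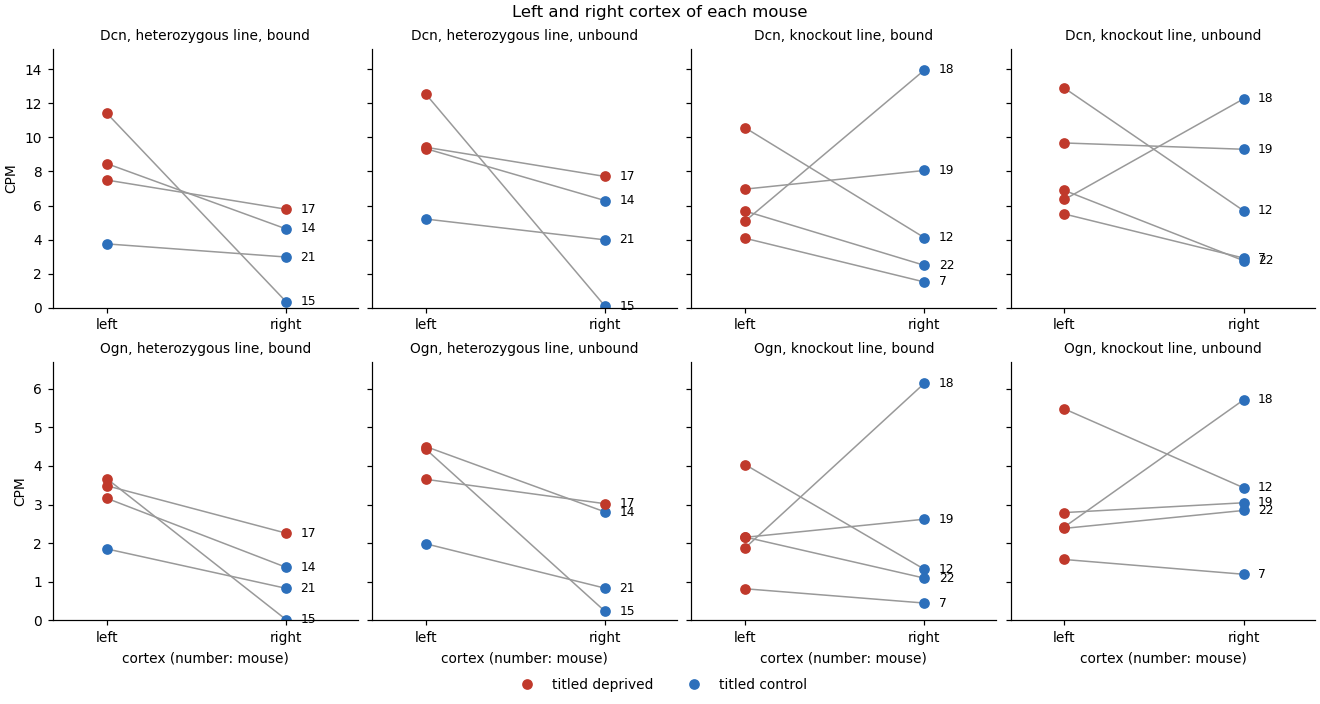
CPM of Dcn (top) and Ogn (bottom) in the left and right cortex of each mouse, joined by a line, for bound and unbound RNA of the heterozygous line (left panels, 4 mice) and the knockout line (right panels, 5 mice); red points are titled deprived and blue points titled control. All lines of the heterozygous panels fall to the right, steepest in mouse 15, and those of the knockout panels run both ways, with mouse 18 higher on the right.

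Of 23 other meningeal fibroblast genes tested in bound RNA of the heterozygous line, 6 were called higher in deprived pieces and 0 lower, against 5.52% of all genes called higher. All 23 were above 0, with a median of 0.84. Tgfbi, a collagen-binding matrix protein, was higher by 1.13 ± 0.18, Apod by 0.64 ± 0.14, Aldh1a2, which makes retinoic acid in the meninges, by 1.495 ± 0.349, and Prelp, a proteoglycan of the same family as Dcn, by 1.27 ± 0.30. In unbound RNA 4 of 23 were called higher, against 3.75% of all genes called in either direction, and the smallest p of these belonged to Mgp (1.46 ± 0.31) and Islr (0.97 ± 0.21). With the groups taken from the side letters, edgeR called 0 genes in either fraction, so every call of these lists ends there. Leaving out piece 15R was a setting chosen for the lists after seeing the data. In bound RNA 9 of 24 of these fibroblast genes were then called higher, against 4.92% of all genes. In unbound RNA it was 4 of 23, against 1.54%. Without the pieces 17R and 21L it was 7 of 23 in bound and 2 of 23 in unbound RNA, against 2.4% and 1.32% of all genes.

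Of the other pericyte genes 0 of 13 were called in bound RNA, with a median of -0.06, and 0 of 14 in unbound RNA by edgeR, with a median of 0.12. Cald1, an actin-binding protein of smooth muscle and other cells, was the 1 other smooth muscle gene called, higher by 0.61 ± 0.10 in bound and 0.57 ± 0.12 in unbound RNA. Border macrophage markers were called higher in 5 of 7 cases in bound RNA, against 5.52% of all genes. Their summed levels were 58.6 to 79.0 CPM in deprived and 8.45 to 39.5 CPM in control pieces, with the lowest value in piece 15R. The count was 7 of 7 without piece 15R, against 4.92% of all genes, and 2 of 7 without the pieces 17R and 21L, against 2.4%. Choroid plexus markers had summed levels of 343.0 to 561.4 CPM in deprived and 3.41 to 582.3 CPM in control pieces in bound RNA, with 3 of 4 control pieces under 71 CPM, and 0 of 8 were called. Endothelial markers overlapped, at 47.8 to 76.8 CPM in deprived and 45.5 to 55.9 CPM in control pieces, and 0 of 11 were called.

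Markers of cells outside the vessel wall and meninges differed between the groups of this line as well. In bound RNA 6 of 10 microglial and 4 of 10 astrocyte markers were called higher by edgeR, against 5.52% of all genes. The summed microglial levels were 240.3 to 288.9 CPM in deprived and 135.1 to 198.5 CPM in control pieces. The summed astrocyte levels were 787.9 to 844.3 CPM in deprived and 676.9 to 754.1 CPM in control pieces. Neither sum overlapped between the groups, and how common this is over all genes was not counted. The summed neuron markers ran the other way, at 2637 to 2970 CPM in deprived and 2974 to 3321 CPM in control pieces. Of the neuron markers 1 of 6 was called lower, against 857 of all 18001 genes. In unbound RNA 0 of 10 microglial markers and 3 of 10 astrocyte markers were called higher, against 2.7% of all genes. There 2 of 6 neuron markers were called lower, against 190 of all 18073 genes. Thalamus markers had 2 of 5 called higher and 1 lower in bound RNA. Without the pieces 17R and 21L the microglial and astrocyte counts in bound RNA were 3 and 2 of 10, against 2.4% of all genes called higher. The part of these markers in the values of the fibroblast genes was not tested.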

How the data were processed

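The deposited files are 3 tables of raw counts per gene, 1 for each line. Per the submitters' processing notes, the tools included HISAT2 2.2.0, featureCounts 2.0.0, Trim Galore 0.6.4, FastQC 0.11.9 and cutadapt 2.9, and the labels' protocols give Nugen Ovation V2 amplification and Nextera XT libraries. These counts carry no molecular identifiers, so amplified copies are counted as reads, and counting error is the least error a value can have. Amplified cDNA can also distort the levels of low genes.

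Libraries were grouped by their titles. Counts were scaled by TMM and tested with edgeR 4.0.16 (quasi-likelihood, limma 3.58.1, R 4.3.3), after edgeR's filter on low counts, with Benjamini-Hochberg adjustment over all genes and a threshold of 0.05. Deprived was compared with control in each fraction, bound with unbound in each line as the mean of both bound groups minus the mean of both unbound groups, and lines by an interaction term fitted over the 2 lines together. DESeq2 1.42.0, its size factors, no filter, each library left out, other groupings and replicate blocks were alternatives. CPM in the figures has a prior count of 2 on the log2 scale. The fit was also run on simulated independent counts, which held no shared mice, paired fractions or outlying piece. That run cannot show how far such features moved the calls here. Named genes were the 10 members, up to 4 genes of each vessel or meningeal list called in a direction with the smallest p, and the 5 genes most like each pattern among those with a mean log2 CPM of at least 1. The members and lists were chosen with earlier results of these data known.

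In the knockout line the numbers in the titles are mice, so deprived and control cortex of a mouse are paired, and deviations of a pair correlated above 0.1 in 4 of 5 mice in bound and 3 of 5 in unbound RNA. Both fractions of a piece come from 1 lysate, with a correlation above 0.1 in 7 of 10 astrocyte, 8 of 8 heterozygous and 10 of 10 knockout pieces. The astrocyte line's replicate numbers are not stated to pair samples. Some pieces share a mouse, so p-values cover the spread between pieces, not between animals alone.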

Additional observations from a re-analysis of the deposited data

Results flagged for a closer look

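In 120 groups of 4 or 5 libraries, 7 had 1 library far from the others by Dixon's criterion, and chance alone marks about 1 in 20 groups. Of the 7, 4 were the control piece 15R of the heterozygous line. Dcn had 0.0772 CPM (3 counts) in its unbound RNA, against 3.98 to 6.29 CPM in the other control pieces. Igf2 had 0.336 CPM (14 counts) in its bound RNA, against 3.06 to 3.93 CPM. Slc6a13 had 0 CPM in its bound RNA, against 0.665 to 0.916 CPM, and 0.0257 CPM (1 count) in its unbound RNA, against 0.996 to 1.63 CPM. The other 3 were single values. Pdgfrb had 3.78 CPM in unbound RNA of the deprived piece 15L, against 2.64 to 2.72 CPM in the other deprived pieces. Acta2 had 0.249 CPM (12 counts) in bound RNA of the deprived piece 17L, against 0.801 to 0.961 CPM. Tagln had 0.185 CPM (2 counts) in unbound RNA of the astrocyte deprived replicate 5 and 0 in the other 4.

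Bound minus unbound log2 differences differed between lines by the interaction term for 3 genes. Pdgfrb was greater in the astrocyte line than in the heterozygous line by 0.53 and than in the knockout line by 0.72. Acta2 was greater in the astrocyte line by 1.65 and 1.60. Rgs5 was lower in the astrocyte line than in the knockout line, at -0.32. Tag driver, Cx3cr1 genotype, labelled tamoxifen, deposited table and read depth differed together between the astrocyte line and both microglial lines and cannot be told apart. The labels give no tamoxifen for the astrocyte line. The labelled kind of RNA also differed between the astrocyte and knockout lines, but not between the astrocyte and heterozygous lines.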

How the results depend on the processing

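Pdgfrb, Rgs5 and Igf2 kept their direction and their call between fractions in each line under all 24, 21 and 24 alternatives run. Deprivation calls over all genes moved with the settings. Without the filter on low counts edgeR called 85 and 143 genes in bound and unbound RNA of the astrocyte line, 28 and 52 of the knockout line and 1459 in unbound RNA of the heterozygous line, and 1 gene between the knockout and heterozygous lines. DESeq2 called 5 and 4 in the astrocyte line, 11 and 34 in the knockout line and 1170 in unbound RNA of the heterozygous line. Groups by side letter gave 0 genes in either fraction of the heterozygous line and 0 of the 9 genes in bound RNA. Without 17R and 21L it was 741 and 294 genes, with 0 of the 9 genes called in bound RNA. Of the 9 genes, 6 were called in each fraction without the filter, 2 in unbound RNA by DESeq2, 3 and 1 with the replicate block, and 5 and 1 in mice 14 and 15 alone with the block. The shares of all genes called for deprivation in these settings are not given here, so these counts are not set against all genes. The replicate block also joins pieces of different mice, and the fit of mice 14 and 15 rests on few pieces. The replicate block gave 2 and 3 genes in the knockout line, and the piece as replicate block gave 8 and 7 of the 9 genes between fractions of the heterozygous and knockout lines. Without the filter 8 were called in the heterozygous line. The shares of all genes called between fractions in these settings are not given here.

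Leaving out 1 library gave 938 to 2089 genes and 0 to 3 of the 9 in bound RNA of the heterozygous line, and 247 to 1141 genes and 0 to 2 of the 9 in unbound RNA. The count moved by over 1.5 times without 15L (938) or 21R (1068) in bound RNA, and without 15L (247), 14L (383), 17R (396), 15R (402) or 14R (1141) in unbound RNA. It gave 0 to 2 genes in bound and 0 to 22 in unbound RNA of the knockout line, 3 to 7 of the 9 between astrocyte fractions and 0 to 1 gene between the knockout and heterozygous lines. Directions that reversed all belonged to values that were not called. In bound RNA of the heterozygous line Pdgfrb ran from -0.10 to 0.28 and Acta2 from -0.066 to 0.39, with -0.084 by side letter. Vtn ran from -0.12 to 0.021 and Acta2 from -0.12 to 0.19 between astrocyte fractions, and Vtn from -0.21 to 0.030 between knockout fractions. The lowest of the 9 log2 differences in bound RNA of the knockout line ran from -0.50 to 0.061. The cause of these changes was not tested. In the heterozygous line the replicate numbers joined the hemispheres of mouse 14 and those of mouse 15. The other numbers joined a piece of mouse 17 with a piece of mouse 21, so they paired different animals. Deviations correlated above 0.1 in 1 of 4 of these pairs in each fraction.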
